A study of Mus musculus with 10 samples.

Results

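Accessible sites at microRNA (miRNA) genes, away from the start sites of longer genes, are described here. ATAC-seq uses the transposase Tn5 to insert adapters into open chromatin, and regions that collect many insertions are called as accessible sites. A site was included if it lay on chromosomes 1 to 19 of mm10, overlapped the window of 1 kb on either side of a gene annotated as miRNA by GENCODE, and was more than 1 kb away from every transcript start of protein-coding, lincRNA and antisense genes. This rule selected 315 of the 153924 sites in the list. They belonged to 127381 sites on these chromosomes that pass the same distance from start sites, which are called distal sites below, and made up 0.247% of them. The annotation held 2054 miRNA genes on these chromosomes, and 300 of them, or 14.6% (95% Wilson interval 13.1 to 16.2%), had at least 1 of the 315 sites. The outermost site ended 995 bp from its miRNA gene, and the next site outside the window was 1002 bp away. The closest included site was 1006 bp from an excluded kind of start, and the excluded site farthest from one was at 957 bp.

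The cells were immortalized mouse embryo fibroblasts (iMEF) in which exon 4 of the endogenous Ash2l alleles is deleted in all groups, and which live on a lentivirally delivered fusion of FKBP12 F36V, HA2 and human ASH2L. ASH2L is a core subunit of the KMT2 complexes that methylate histone H3 at lysine 4. The 10 libraries were 2 replicates each of untreated cells (labelled WT, given the solvent EtOH according to the methods) and of cells exposed for 30 min, 4 h, 8 h and 24 h to dTAG-13, which directs the fusion protein to degradation. According to the study, the cells treated for ATAC-seq are a single clone, and the labels do not say whether the replicates are separate cultures. The labels' extraction protocol describes cross-linked cells and a lysis as for ChIP, whereas the methods describe Tn5 treatment of nuclei for ATAC-seq without naming a fixation, and which applies to these libraries was not resolved. The deposited list pools the sites of all libraries and holds a chromosome, a start and an end for each. It holds no value for a library, so no time point was compared, no replicate error can be given, and the depth is unknown. All intervals are over sites or genes, which are not replicates, and no difference between sets of sites was tested.

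MiRNAs are made from longer primary transcripts in which a hairpin is cut out by Drosha and Dgcr8 and then trimmed by Dicer. The mature strand guides Argonaute to messenger RNAs that pair with its seed, the bases near its 5′ end, and thereby lowers their translation and stability. Hairpins lie in introns or exons of host genes or in transcripts of their own, so the start site that drives a miRNA can be far from the hairpin. An accessible site beside a hairpin can be an enhancer, a promoter that is not annotated, or an element without any relation to the miRNA. The list does not distinguish these, and expression of miRNAs was not measured in it.

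The mature sequences of 7 listed miRNAs whose hairpin lay completely inside an accessible site are shown from 5′ to 3′, as given by RefSeq for GRCm38.p6, with the seed (bases 2 to 8) in capitals. The pair miR-132 and miR-212, which are covered by a single site, share the seed AACAGUC.
mmu-let-7i-5p: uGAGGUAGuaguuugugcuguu
mmu-miR-34a-5p: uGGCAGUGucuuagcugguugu
mmu-miR-132-3p: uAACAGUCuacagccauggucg
mmu-miR-212-3p: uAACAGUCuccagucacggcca
mmu-miR-199a-3p: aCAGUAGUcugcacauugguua
mmu-miR-203-3p: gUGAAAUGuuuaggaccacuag
mmu-miR-128-3p: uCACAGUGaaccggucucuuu

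Sequences of the miR-344 family are shown because most of its hairpins on chromosome 7 carried a site, which was noticed after the values had been seen. The seed GUCAGGC is shared by the 5p strands of 7 genes with a site, and the 3p strands fall into several seeds.
mmu-miR-344-5p: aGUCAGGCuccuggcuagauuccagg
mmu-miR-344b-5p: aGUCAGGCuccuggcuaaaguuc
mmu-miR-344c-5p: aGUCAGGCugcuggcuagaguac
mmu-miR-344d-1-5p: aGUCAGGCugcuggcuauacacca
mmu-miR-344g-5p: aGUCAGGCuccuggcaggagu
mmu-miR-344-3p: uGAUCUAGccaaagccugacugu
mmu-miR-344b-3p: cAUUUAGCcaaagccugacugu
mmu-miR-344d-3p: gAUAUAACcacugccagacuga

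Stretches of 4 sites at listed miRNAs are shown with a motif match in capitals, on the strand of the match and on mm10. They are the match to the EGR consensus beside let-7i at chr10:122985914-122985962 (minus strand), the AP-1 matches beside miR-146a (annotated as Mir146) at chr11:43373561-43373607 (plus) and miR-203 at chr12:112130589-112130635 (plus), and the CTCF match beside miR-141 at chr6:124716989-124717040 (plus). EGR proteins are immediate early zinc finger factors, AP-1 is the family of Fos and Jun dimers, and CTCF organizes chromatin loops. A match is a description of the sequence and does not show binding.
let-7i, EGR: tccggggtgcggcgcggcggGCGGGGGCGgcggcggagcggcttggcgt
miR-146a, AP-1: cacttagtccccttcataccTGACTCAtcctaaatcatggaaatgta
miR-203, AP-1: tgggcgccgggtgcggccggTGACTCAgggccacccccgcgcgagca
miR-141, CTCF: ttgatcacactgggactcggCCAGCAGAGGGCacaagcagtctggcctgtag

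Most sites belonged to a single miRNA gene. Of the 315 sites, 305 had 1 miRNA gene in reach, 9 had 2 and 1 had 5. Conversely, 273 miRNA genes had 1 site, 26 had 2 sites and 1, Gm27299 on chromosome 12, had 3 sites of 197, 421 and 219 bp. Both counts together gave 328 pairs of a site and a miRNA gene. At Gm27299, repeat bases made up 100% of the site of 197 bp, 0% of that of 421 bp and 74.0% of that of 219 bp. The median over the 315 sites was 11.2%. The share of miRNA genes with a site was 16.0% (173 of 1084, 13.9 to 18.3%) for symbols starting with Mir and 13.1% (127 of 970, 11.1 to 15.4%) for other symbols. A hairpin in RefSeq was found for 151 of the 300 genes. The share was 17.0% (151 of 886, 14.7 to 19.7%) with such a hairpin and 12.8% (149 of 1168, 10.97 to 14.8%) without. Names and RefSeq entries overlap, so these are not independent views.

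The listed miRNAs are those known for a cell type or process, in 11 lists that included cell types other than fibroblasts. Of the 115 listed genes that were annotated, 22 had a site (19.1%, 13.0 to 27.3%), compared to 14.6% of all miRNA genes. In 10 of these the site touched the hairpin, and in 9 it covered it. Over all 2054 miRNA genes, a site touched the hairpin in 5.45%, and the nearest site covered it in 87. A further 21 had sites in reach that all lay within 1 kb of an excluded start, and 72 had none. Without the exclusion of starts, 27.2% of all miRNA genes had a site in reach, compared to 14.6% with it.

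**Figure D1:**
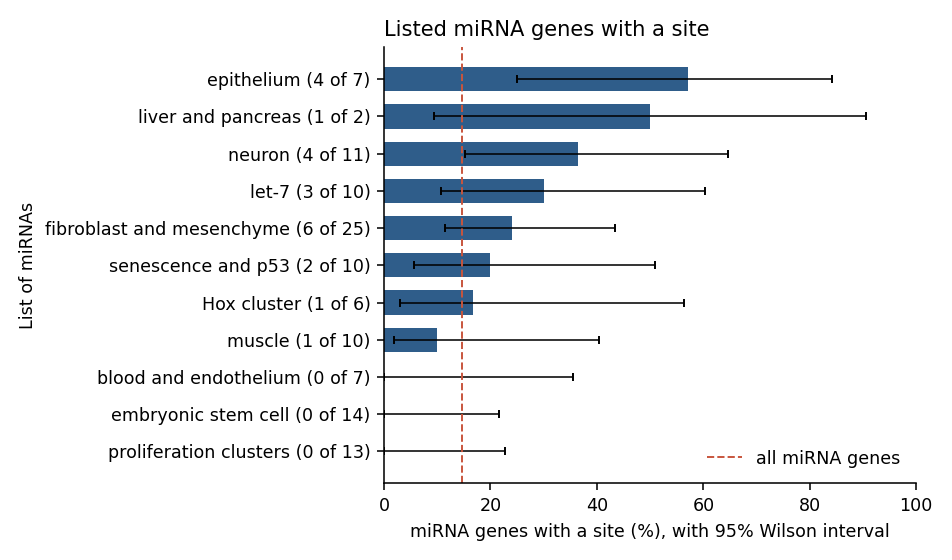
Share of annotated miRNA genes with a site (x axis, percent, with 95% Wilson intervals) for each of the 11 lists (y axis, with counts), with the share over all miRNA genes (14.6%) as dashed line. The lists hold 2 to 25 genes. The intervals of the epithelium list (4 of 7) and of the neuron list (4 of 11) lie above the line, and those of the other lists include it. Mir141 and Mir200c of the epithelium list share a single site, as do Mir212 and Mir132 of the neuron list. The intervals count them as separate genes and are too narrow for this reason.

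Among miRNAs of fibroblasts and mesenchyme, 6 of 25 had a site (24.0%, 11.5 to 43.4%). The hairpin of Mir199a-1, a miRNA of mesenchymal cells encoded against the strand of Dnm2, lay inside an intronic site of 1775 bp at chr9:21496223-21497997. Mir145a, known from smooth muscle, was covered by a site of 712 bp outside genes. Mir214, which is made from the mesenchymal transcript Dnm3os together with Mir199a-2, had a site of 1946 bp that began 892 bp downstream in an exon of Dnm3os, the widest site at a listed miRNA. Mir29a and Mir29b-1, whose products repress collagen genes and share the seed AGCACCA, had 1 site of 918 bp in common, 232 and 595 bp downstream of their hairpins. Mir125b-1 lay between a site of 1178 bp, 351 bp upstream, and a site of 338 bp, 277 bp downstream. The site of 338 bp contained the TEAD consensus in its middle. For Mir199a-2, Mir199b, Mir100, Mir22 and Mir152, all sites in reach lay within 1 kb of an excluded start. The remaining 14, among them Mir21a, Mir143, Mir31 and the Mir23a and Mir23b clusters, had no site in their window.

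Of the let-7 family, which represses growth regulators such as Lin28 and Hmga2, 3 of 10 genes had a site. Mirlet7i was covered by a site of 1846 bp at chr10:122984994-122986839 with a GC content of 62.8%. This site contains the EGR match shown above, 21.5 bp from its middle. It was 12968 bp from the nearest start of the excluded kinds but covered a start of another annotated transcript type. The sites at Mirlet7a-1 (774 bp, 877 bp upstream) and Mirlet7b (441 bp, 923 bp downstream) were at the edge of the window.

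Among miRNAs of senescence and of the p53 response, 2 of 10 had a site. Mir34a, a direct target gene of p53, was covered by a site of 656 bp at chr4:150068094-150068749, the middle of which lay 83 bp upstream of the middle of the hairpin. Mir146, which dampens NF-kappaB signalling, had a site of 400 bp, 684 bp downstream, with the AP-1 match shown above. For Mir34b and Mir34c all sites in reach were close to an excluded start, and for Mir155, Mir146b, Mir192, Mir194-1, Mir194-2 and Mir215 there was no site. Of the 6 miRNAs of the Hox clusters, Mir196a-1, which targets Hox transcripts, had a site of 298 bp, 433 bp upstream, and 3 others (Mir196b, Mir10a and Mir615) had sites next to excluded starts only.

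None of the 13 miRNAs of the proliferation clusters had a site under the rule (0%, upper limit of the Wilson interval 22.8%). For 5 of them (Mir17, Mir18, Mir25, Mir93 and Mir106b) all sites in reach lay within 1 kb of an excluded start, and for the other 8 there was no site. For these 5 genes the exclusion of starts decided the count.

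Sites were also found at miRNAs that are known from other cell types. Among neuronal miRNAs, 4 of 11 had a site (36.4%, 15.2 to 64.6%). Mir212 and Mir132, which are induced by CREB in neurons, lay in a single site of 1105 bp at chr11:75172767-75173871 with a GC content of 68.0%. This site contained matches to AP-1 and EGR outside its middle. It was 3248 bp from the nearest start of the excluded kinds but 207 bp from a start of another annotated transcript type. Mir128-2 was covered by a site of 858 bp in an intron of Arpp21, 66584 bp from the nearest excluded start. Mir9-3 shared part of its hairpin with a site of 692 bp, and a second site of 346 bp followed 738 bp downstream. Of the epithelial miRNAs, which keep the mesenchymal factors Zeb1 and Zeb2 low or act in skin, 4 of 7 had a site (57.1%, 25.1 to 84.2%). Mir203 was covered by a site of 1264 bp at chr12:112130026-112131289 with a GC content of 67.8%, Mir205 had a site of 221 bp that ended 8 bp upstream of the hairpin, and Mir141 and Mir200c shared a site of 607 bp with the CTCF match shown above, 514 and 922 bp downstream. The other cluster of this family, Mir200a, Mir200b and Mir429, had no site. Mir375, a miRNA of pancreatic islets, was covered by a site of 563 bp and had a second site of 446 bp, 729 bp downstream.

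Of the 10 muscle miRNAs, 1 had a site (10.0%, 1.79 to 40.4%), namely Mir133a-1 (327 bp, 961 bp upstream). None of the 14 miRNAs of embryonic stem cells in the Mir290 and Mir302 clusters (0%, upper limit 21.5%) and none of 7 miRNAs of blood and endothelium (0%, upper limit 35.4%) had a site. Mir142hg, Mir223 and Mir122b of the lists were not in the annotation used. With 2 to 25 genes a list, the intervals are wide, and the lists were not compared by a test. Genes that share a site, such as Mir212 and Mir132 or Mir141 and Mir200c, were counted separately.

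**Figure D2:**
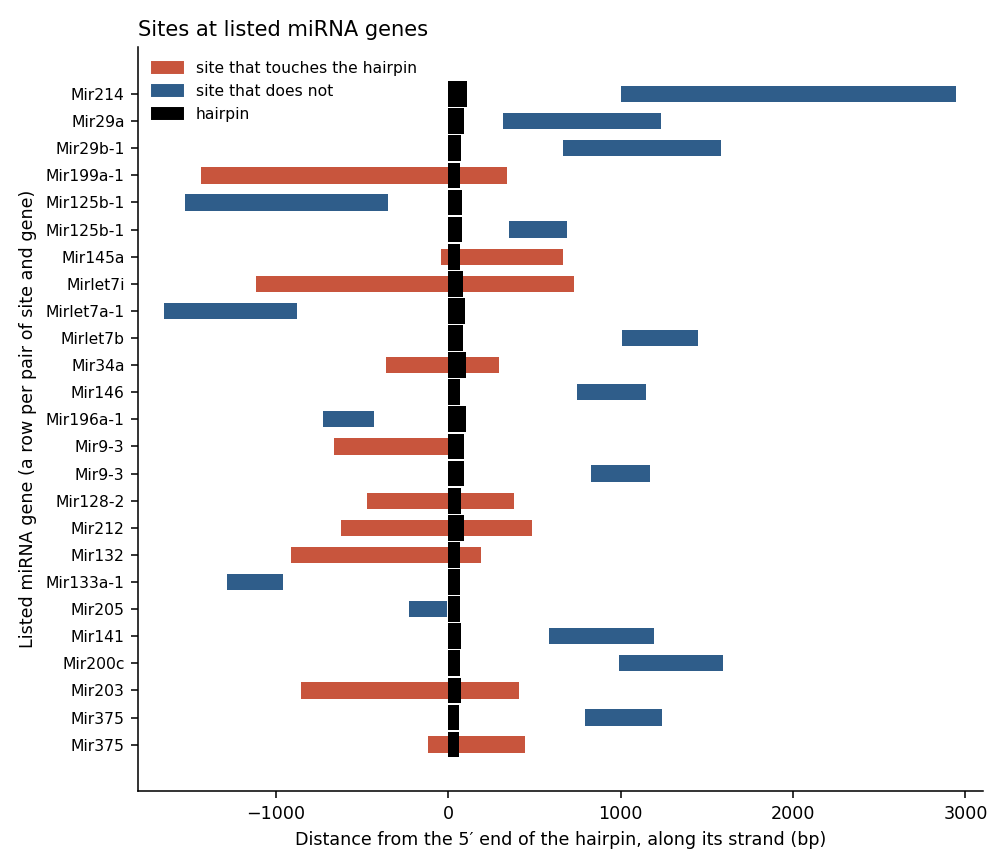
Position of the 25 pairs of site and listed miRNA gene, with distance from the 5′ end of the hairpin along its strand in bp on the x axis and a row for each pair. Orange bars are sites that touch the hairpin, blue bars sites that do not and black bars the hairpin, and sites of 221 to 1946 bp lie on both sides.

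Over all miRNA genes with a site, the nearest site covered the hairpin in 87 of 300 (29.0%, 24.2 to 34.4%), shared part of it in 25 (8.33%), was upstream in 80 (26.7%, 22.0 to 31.9%) and downstream in 108 (36%, 30.8 to 41.6%). The hairpin stands here for the annotated interval of the miRNA gene, and 149 of the 300 genes had no hairpin in RefSeq. Where the hairpin was not touched, the median gap was 484 bp. Counted by sites, 84 of 315 covered a hairpin (26.7%, 22.1 to 31.8%), and a further 24 shared part of one. The 108 sites that touched a hairpin were wider (median 882.5 bp, 712 to 1021 bp) than the 207 that did not (609 bp, 544 to 680 bp). Wider sites reach a hairpin more often by position alone. Without the miR-344 locus described below, 92 of 298 sites touched a hairpin (30.9%, 25.9 to 36.3%), compared to 34.3% with it.

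To see whether sites gathered at the hairpin, positions along the strand were scored by whether they fell in a distal site, leaving out positions too close to an excluded start. At the middle of the hairpin this was the case for 7.69% of 819 genes with a symbol starting with Mir (6.06 to 9.72%), and 1 kb upstream for 4.23% of 804 (3.04 to 5.85%). When the miR-344 locus was left out, the value at the middle was 6.33% (4.85 to 8.22%) and that at 1 kb upstream 4.17% (2.99 to 5.80%), and the intervals overlapped. The value 1 kb downstream without the locus was 5.70% (4.35 to 7.44%). Farther downstream, values above that at the middle were 7.12% (5.61 to 8.99%) at 2500 bp, 7.32% (5.79 to 9.20%) at 3250 bp and 7.24% (5.74 to 9.11%) at 5000 bp. These positions were picked for their high values, and their intervals overlapped that of the middle. Without the locus, the middle of the hairpin was therefore not the highest position. For genes with other symbols, the values were 4.30% (3.12 to 5.90%) at the middle and 4.17% (3.03 to 5.72%) at 1 kb upstream.

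**Figure D3:**
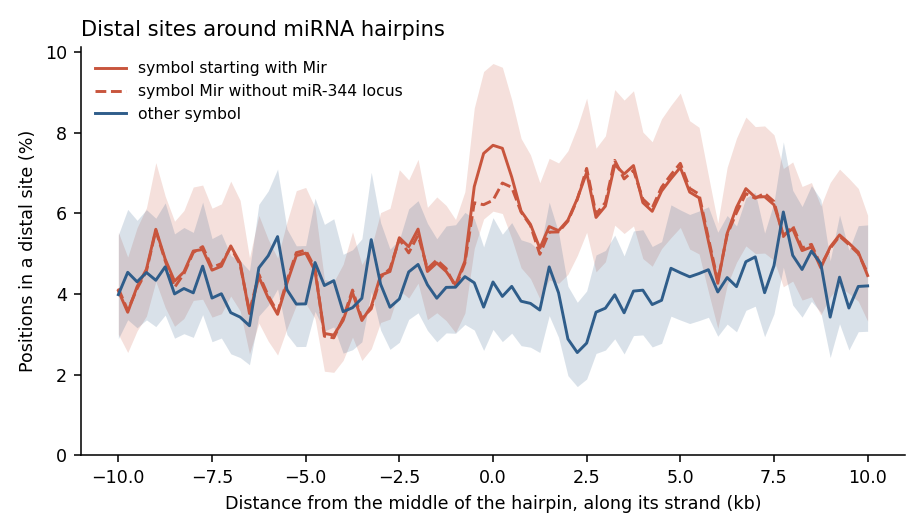
Percent of positions that lie in a distal site (y axis) at distances of up to 10 kb from the middle of the hairpin along its strand (x axis, kb), for miRNA genes with a symbol starting with Mir (orange, dashed without the miR-344 locus) and other symbols (blue), with 95% Wilson intervals as bands. The orange line stands at 7.69% at the middle and the dashed line at 6.33%, where the blue line is at 4.30%. Downstream the dashed line, drawn without a band, rises above its value at the middle, up to 7.32%, with overlapping intervals. The blue line ranges from 2.55 to 6.04% over all positions.

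The sites at miRNA genes were wider than distal sites as a whole. The median width was 682 bp (622 to 737 bp, quartiles 411 and 1029.5 bp, range 187 to 2803 bp), compared to 569 bp (566 to 572 bp) for distal sites. Sites of 1000 bp or more made up 27.3% (22.7 to 32.5%) and 16.7%, respectively. An overlap with a window selects wide sites by position alone. When every distal site was weighted by the number of positions from which it would reach such a window, the median of distal sites was 629 bp, within the interval of the sites at miRNA genes, and the share of 1000 bp or more was 20.7%, below that interval.

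**Figure D4:**
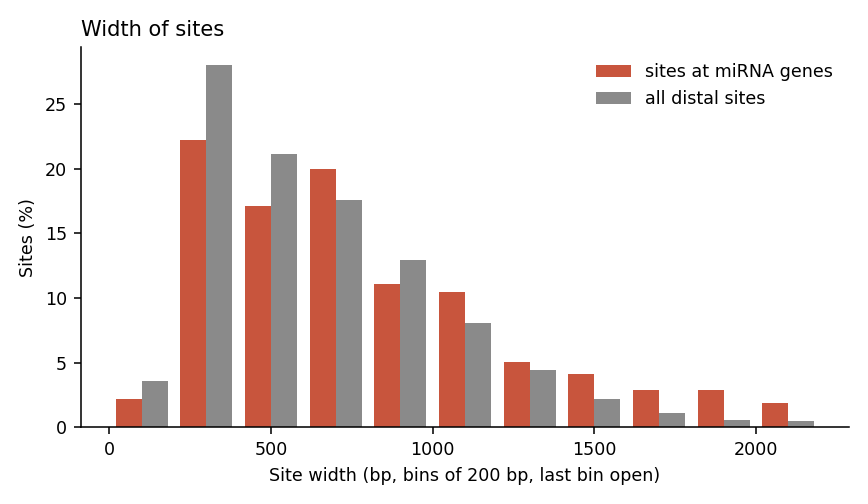
Percent of sites (y axis) by width in bins of 200 bp (x axis, the last bin holds all sites of 2000 bp or more), for the 315 sites at miRNA genes (orange) and all 127381 distal sites (grey). Sites of 200 to under 400 bp make up 22.2% at miRNA genes and 27.99% of all distal sites, and those of 2000 bp or more 1.90% and 0.483%.

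The 5 widest sites were found at Mir3075 in an intron of Zmiz1 (2803 bp), which encodes a transcriptional coregulator, at the predicted gene Gm44467 outside genes (2342 bp), at Mir344 (2118 bp), at Gm22118 in an intron of Zswim6 (2031 bp) and at Mir466q in an intron of Tnik (2018 bp), the gene of a kinase acting in Wnt signalling. The site of Zmiz1, at chr14:25532979-25535781, contained matches to AP-1 and TEAD, covered the hairpin and was 18588 bp from the nearest excluded start. Apart from Gm22118, where the site was 647 bp upstream, these sites covered the hairpin.

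The sites at miRNA genes had a median GC content of 47.8% (46.4 to 48.9%), compared to 44.5% for distal sites, and a median share of repeat bases of 11.2% (9.78 to 14.4%), compared to 11.99%. Their middle was exonic in 9.21% (6.49 to 12.9%), intronic in 51.7% (46.2 to 57.2%) and outside genes in 39.0% (33.8 to 44.5%). For distal sites these shares were 4.17, 49.0 and 46.8%. Viewed from the miRNA genes, 13.4% (145 of 1079, 11.5 to 15.6%) of those in a gene on the same strand, 12.1% (37 of 305, 8.93 to 16.3%) of those against the strand of a gene and 17.6% (118 of 670, 14.9 to 20.7%) of those in no gene had a site. Genes of a single cluster were counted separately, among them 119 in an intron of Sfmbt2 with 0 sites under the rule.

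Sites rich in CpG, with a GC content above 50% and an observed to expected CpG ratio above 0.6 as in CpG islands, numbered 25 of 315 (7.94%, 5.43 to 11.5%), compared to 0.815% of distal sites. This set was defined after the values had been seen. The hairpin was touched by 17 of the 25, compared to 108 of all 315 (34.3%). Of the 25, 15 belonged to symbols starting with Mir, among them Mirlet7i, Mir212 and Mir132, Mir203, Mir9-3, Mir375, Mir129-2, Mir148a and Mir193a. The site of Mir148a spanned 1819 bp and was 16279 bp from any annotated start of another gene, and that of Mir193a spanned 1601 bp at a distance of 6088 bp. Of the 25 sites, 5 were within 1 kb of a start of another gene type that the rule does not exclude, as were 27 of all 315. Such starts were not counted for the distal sites as a whole, so these numbers have no comparison there. Among the 5 were the site of Mirlet7i and that of Mir212 and Mir132. The other 10 sites belonged to other symbols, and 6 of these had under 50% of words of 32 letters that occur once in the chromosomes, so reads there can have more than 1 place of origin. None of the 15 at symbols starting with Mir was under 50%.

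Of 6 consensus motifs searched on both strands in the middle 200 bp, AP-1 (TGACTCA or TGAGTCA) was the most frequent. It was found in 31 of the 315 sites (9.84%, 7.02 to 13.6%), compared to 16.2% of distal sites. The share was below that of distal sites in each class of width, with 8.41% (4.49 to 15.2%) against 14.1% under 500 bp, 11.5% (6.96 to 18.3%) against 18.6% from 500 to under 1000 bp and 9.30% (4.79 to 17.3%) against 15.7% at 1000 bp or more, but the intervals of 2 of the 3 classes include the distal value. In whole sites, AP-1 was found in 23.8% (19.4 to 28.8%) and in 30.9% of distal sites. TEAD (ACATTCC), a motif of the effectors of Hippo signalling, was found in 12 sites (3.81%, 2.19 to 6.54%) and in 6.41% of distal sites. CTCF (11 sites, 3.49%, 1.96 to 6.14%) and the SRF CArG box (5 sites, 1.59%, 0.680 to 3.66%) occurred in 3.05% and 1.49% of distal sites. EGR (GCGGGGGCG or GCGTGGGCG) was found in 2 sites (0.635%, 0.174 to 2.29%) and in 0.119% of distal sites. NRF1 was found in none (0%, upper limit 1.205%) and in 0.0118% of distal sites. At least 1 of the 6 motifs was present in the middle of 57 sites (18.1%, 14.2 to 22.7%) and of 25.8% of distal sites. The other 258 sites held no match there. The GC content of both sets differed as given above, and its part in these shares was not tested.

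At the miR-344 locus, a site lay on most hairpins. Between the imprinted genes Snrpn and Ndn on chromosome 7, a chain of miRNA genes on the minus strand with at most 100 kb between neighbours extends over 411.5 kb, from 61673829 to 62085310. No protein-coding gene lies inside, Snrpn is 1534 kb and Ndn 261.3 kb away. The chain holds 20 miRNA genes, 13 with a Mir344 symbol and 7 with another. A site touched the hairpin of 16 of them, 12 of the Mir344 genes and 4 of the others, while hairpins take up 0.373% and sites 4.75% of the locus. Of 26 sites in the locus, 17 were in reach of a miRNA gene and 16 touched a hairpin.

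The 16 touching sites had a median width of 841 bp (326 to 2118 bp), and the 10 other sites one of 588.5 bp (307 to 853 bp). The middle of the site was upstream of the middle of the hairpin in 14 of 16, with a median offset of 83 bp. Each of the 16 was similar in sequence to between 7 and 16 other sites of the locus by BLAST, with an identity of 75.8 to 91.4% in the best match (median 82.6%), whereas 1 of the 10 other sites was similar to any. The 16 sites thus share sequence and are not independent observations. Words of 32 letters that occur once in the chromosomes made up 86.9% or more of 15 of the 16 sites, and 38.3% of the site at Mir344h-2. The hairpins of Mir344h-1 and Mir344h-2 held no such word, so a read within them could not be assigned to 1 of the copies. The genes without a touching site were Gm25533, Gm23490, Gm23917 and Mir344h-1. In the middle 200 bp, TEAD was found in 2 of the 16 sites, at Mir344h-2 and Mir344c, and AP-1 in 0. In whole sites, TEAD was found in 3 and AP-1 in 1, and CTCF, SRF, EGR and NRF1 in 0.

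**Figure D5:**
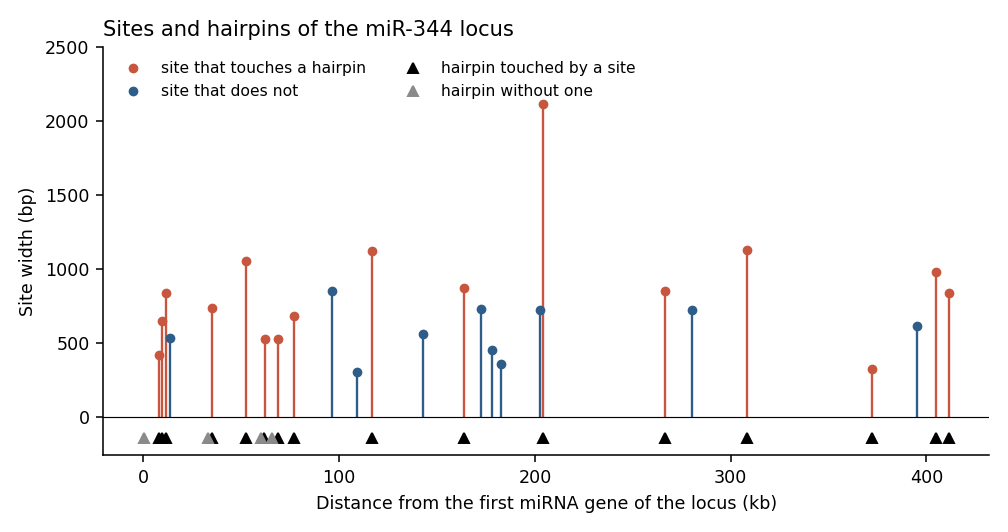
Width of the 26 sites in the miR-344 locus (y axis, bp) by their distance from the first miRNA gene (x axis, kb). Orange points touch a hairpin and blue points do not, triangles below the axis are hairpins (black with, grey without a touching site), and 16 of the 20 triangles stand below an orange point, the highest of which is the site of 2118 bp at Mir344.

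Other large clusters are given with sites under the rule only, beside 14.6% of all miRNA genes with a site. Sites within 1 kb of an excluded start were not counted for clusters. By the rule of at most 10 kb between neighbours, 3 clusters had at least 3 miRNA genes with a site, and 2 of these were parts of the miR-344 locus. The third was the imprinted cluster from Mir379 to Mir3072 on chromosome 12, where a single site of 361 bp lay in reach of Mir381, Mir487b, Mir539 and Gm27379, 4 of its 39 genes. The neighbouring group from Mir770 to Mir136 had 14 miRNA genes and 0 sites under the rule. The Wilson interval for 0 of 14 reaches 21.5%. The cluster in an intron of Sfmbt2 on chromosome 2 was the largest with 119 miRNA genes and had 0 sites under the rule. In this cluster, 72 genes had under 50% of unique words in the 500 bp around the hairpin. Another 30 had 50 to under 90% of such words, and 17 had at least 90%. All of them are counted, without a site, in the shares over all miRNA genes given next. Over all miRNA genes, the share with a site was 16.2% (205 of 1263, 14.3 to 18.4%) where at least 90% of these words were unique, 14.7% (63 of 428, 11.7 to 18.4%) between 50 and 90%, and 8.82% (32 of 363, 6.31 to 12.2%) below 50%. Among the sites themselves, 14 of 315 (4.44%) had under 50% of unique words, compared to 1.57% of 1274 distal sites taken at regular steps. The part of read mapping in these counts was not tested.

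The 151 genes with a site and a RefSeq hairpin carried 210 different seeds, and 16 of these were shared by at least 2 genes. Shared seeds were not counted over all 886 genes with a RefSeq hairpin, so this number has no comparison. Outside the miR-344 family, GAGGUAG was shared by Mirlet7a-1, Mirlet7b, Mirlet7i and Mir1961. CAGUGCA was shared by Mir148a and Mir148b, which had sites of 1819 and 1622 bp over their hairpins, and ACUGGCC by Mir193a and Mir193b. CAGCAGG was shared by Mir214 and Mir761.

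Among chromosomes, the share of miRNA genes with a site reached from 7.72% (20 of 259, 5.05 to 11.6%) on chromosome 2, which carries the Sfmbt2 cluster, to 26.3% (15 of 57, 16.6 to 39.0%) on chromosome 18. On chromosome 7, the share was 19.6% (30 of 153, 14.1 to 26.6%).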

How the data were processed

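ATAC-seq was performed by the authors on 10 libraries. According to their methods, reads were trimmed with Trim Galore, aligned to mm10 with BWA, filtered with SAMtools, merged over replicates with Picard and used to call narrow peaks with MACS (MACS2 in the submitters' processing notes), with code adapted from nf-core. Versions, the peak threshold, any shift of read ends for Tn5 and the way peaks of different samples were joined are not given in the sources used here. These choices set the number and width of sites. The table deposited by the authors gives the position of each site, pooled over all libraries, with 0 columns of other samples. Because it holds no counts, the planned count test of time points was not run.

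Starts were read as counted from 0 and are printed counted from 1. Gene positions came from the comprehensive GENCODE annotation of GRCm38. The gap of a site to a miRNA gene and to transcript starts was computed for each site. Motifs were searched as exact consensus matches on both strands, in the middle 200 bp. Unique words are sequences of 32 letters found once in chromosomes 1 to 19, X and Y on either strand. Sites were compared by BLAST 2.17.0 (E-value 1e-5). Shares carry 95% Wilson intervals and medians 95% intervals from order statistics. The named genes were the members of the 11 lists, the 5 widest sites, the gene with most sites and clusters with at least 3 genes with a site. The sites, the lists and the tests were chosen with earlier results of these data known. The computations were tested on simulated data and used Python 3.11.15, NumPy 2.4.6, pandas 2.3.3, Numba 0.67.0, pysam 0.24.0 and Matplotlib 3.10.9.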

Additional observations from a re-analysis of the deposited data

Results flagged for a closer look

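Chromosome X lies outside the rule and was used in no comparison. There, 9 pairs of a site and a miRNA gene met the same distances, and they belonged to 8 of the 142 miRNA genes of this chromosome (5.63%). The miRNA genes were Gm25063, Mir5617 (2 sites), Gm27828, Mir2137, Mir7091, Mir7673, Mir361 and Mir652. The sites spanned 196 to 967 bp. They are given because any site there is outside the main measurement, and the difference from the other chromosomes was not tested.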

How the results depend on the processing

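No paired analysis was possible because values of single libraries are not in the pooled list. The other settings set out for changes with time (DESeq2 size factors and count model, a replicate block, leaving out each replicate) were therefore not run. Of 35 values computed under other settings, 16 stayed close to the value reported and 19 moved. For a number of sites, close meant within a fixed ratio of the number reported. For the other values it meant inside the interval of the value reported. Most of the settings admit other numbers of sites or genes by construction, whereas searching the whole site for AP-1 used the same 315 sites, and causes beyond this were not tested. Counting only sites that touch the hairpin gave 108 sites at 5.45% of miRNA genes, a median width of 882.5 bp and AP-1 in 6.48%. A window of 3 kb gave 785 sites at 32.3% of genes, a median width of 614 bp and 10.7% covering a hairpin. Without exclusion of starts, there were 591 sites at 27.2% of genes with a median width of 933 bp. Restricting the list to its wider sites, from the median width upwards, left 178 sites at 8.76% of genes, and 37.1% covered a hairpin. Symbols starting with Mir left 181 sites. With RefSeq hairpins only, which was chosen after seeing the data, 158 sites were left at 17.0% of genes, and 32.9% covered a hairpin. AP-1 was found in 23.8% when the whole site was searched. Leaving out the miR-344 locus, also chosen after seeing the data, left 298 sites and moved no other value beyond its interval. The unknown depth limits how many weak sites were listed.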
